A study of Mus musculus with 4 samples.

Results

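The genes described here are 10 genes of digestive enzymes that the acinar cells of the pancreas are known for, measured in the mouse stomach: Pla2g1b, Clps, Cpb1, Cpa1, Cela1, Cela2a, Cela3b, Ctrb1, Pnlip and Cel. They are 10 of 46095 gene rows in the count table, and each has a row. They were chosen by name with the comparison between the genotypes already known, so their differences between the genotypes are a description and carry no test. Gastric RNA came from 2 wild type (WT) and 2 Atp4b-cre;MycOE samples, all of C57BL/6 mice aged 12 weeks. The series' design text speaks of triplicates, and 2 samples per genotype were analysed here. In the Atp4b-cre;MycOE mice (MYC-KI in the labels, c-Myc transgenic here) Cre recombinase is driven by the promoter of Atp4b, a subunit of the proton pump, and switches on human c-Myc in the parietal cell lineage. The methods name Myc fl/fl mice without Cre as the controls. The labels give the whole stomach as the tissue, so all cell types were measured together, and in such a sample fewer cells of a type and less RNA per cell cannot be told apart.

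Acinar cells pack digestive enzymes into zymogen granules and release them on stimulation by cholecystokinin and acetylcholine. The proteases are stored as inactive precursors, which trypsin activates in the gut lumen. The lipases act on dietary fat dispersed by bile salts, and colipase anchors pancreatic lipase to the fat droplet. The stomach has a zymogenic cell of its own, the chief cell at the base of the gastric glands, which secretes pepsinogens and, in the mouse, intrinsic factor.

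The libraries held 30260305 to 41463647 counts. In the deposited table the names and the c-Myc transgenic counts are out of register, and the rule that defines these genes assigns those counts, in row order, to the names sorted by character code. Across gene rows (genes are not replicates), the Pearson correlation of log2(count + 1) between the genotypes was 0.524 before and 0.985 after this step, and 0.986 between the WT samples. All values below are from the re-sorted table unless stated. Cpb1, Cpa1 and Ctrb1 keep their place in both orders, so their counts do not depend on the step. Xist had 17846 counts in WT replicate 2 and 85 to 201 in the other samples, so that this library differs in sex from the rest. The WT samples thus came from different mice, while nothing in the labels says so of the c-Myc transgenic samples, and p-values measure only the spread between these samples. The mouse Myc row, which is not the human transgene, had 31.6 and 27.2 normalized CPM (CPM, counts scaled to the library size after TMM normalization) in WT against 21.7 and 24.4 in the c-Myc transgenic samples (edgeR log2 fold change -0.35, adjusted p = 0.163). This direction depends on the re-sorting, since its counts were 1062 and 759 in WT, but in the c-Myc transgenic samples 4920 and 6600 as deposited against 735 and 1091 as re-sorted.

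The 250 bases before the RefSeq start are printed for 4 of the genes, on the GRCm38.p6 build and in the direction of the gene. Pla2g1b is shown for its high WT level, Cela1 and Cela2a as elastase genes of very different level, and Cel as the bile salt-dependent lipase. Capitals mark, on either strand, the TATA box (TATAAA), the E-box of the acinar factor PTF1 (CACCTG), the letters bound by its partner RBPJ (TGGGAA), an E-box bound by BHLHA15 (CAGCTG) and the E-box of MYC (CACGTG).
Pla2g1b (chr5:115465892-115466141, + strand): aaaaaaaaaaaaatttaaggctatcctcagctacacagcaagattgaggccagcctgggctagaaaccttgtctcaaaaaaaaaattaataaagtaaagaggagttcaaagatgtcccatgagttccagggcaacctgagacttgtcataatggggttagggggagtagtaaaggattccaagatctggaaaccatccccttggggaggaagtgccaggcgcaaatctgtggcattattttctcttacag
Cela1 (chr15:100687921-100688170, - strand): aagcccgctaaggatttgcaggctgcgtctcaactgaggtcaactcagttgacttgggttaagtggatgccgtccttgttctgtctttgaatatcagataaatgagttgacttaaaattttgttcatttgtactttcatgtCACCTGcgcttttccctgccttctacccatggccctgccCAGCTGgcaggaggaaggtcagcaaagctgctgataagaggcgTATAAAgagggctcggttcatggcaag
Cela2a (chr4:141826006-141826255, - strand): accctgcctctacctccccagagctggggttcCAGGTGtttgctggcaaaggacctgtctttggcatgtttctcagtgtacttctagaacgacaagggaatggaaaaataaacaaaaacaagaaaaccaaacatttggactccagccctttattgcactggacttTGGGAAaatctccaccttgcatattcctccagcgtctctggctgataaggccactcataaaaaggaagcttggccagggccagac
Cel (chr2:28563404-28563653, - strand): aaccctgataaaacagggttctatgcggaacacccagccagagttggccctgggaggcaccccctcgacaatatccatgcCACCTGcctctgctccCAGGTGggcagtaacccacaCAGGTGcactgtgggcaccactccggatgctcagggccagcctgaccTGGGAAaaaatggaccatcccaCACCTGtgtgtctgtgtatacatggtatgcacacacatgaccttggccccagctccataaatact

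Of the 10 genes, 9 have such a window in the RefSeq table. The PTF1 E-box stands in 5 of the 9 (Cel, Cpb1, Cela1, Cela2a and Cela3b), and in 17.2% of all 32851 windows of this length. The RBPJ letters stand in 5 of the 9 (Cel, Cela2a, Cpa1, Ctrb1 and Pnlip), against 21.6% of all windows. The TATA box stands in 2 (Cela1 and Pnlip, 12.4% of all windows), the BHLHA15 E-box in 2 (Cela1 and Ctrb1, 13% of all) and the MYC E-box in 0 (6.02% of all). In Cela1 the TATA box lies 27 to 22 bases before the start and the BHLHA15 E-box 70 to 65 bases before it. In Cel the PTF1 E-box occurs 4 times, and the RBPJ letters lie 87 to 82 bases before the start. The window of Pla2g1b holds none of the 5 motifs, and GENCODE places the start of this gene at base 115466262 of chromosome 5, 120 bases downstream of the RefSeq start at 115466142. GENCODE also places the start of Cela2a 155 bases upstream of the RefSeq start, so that the RBPJ letters of Cela2a, 85 to 80 bases before the RefSeq start, lie downstream of the GENCODE start. The GENCODE starts of Cela1, Cela3b and Pnlip lie 1, 20 and 17867 bases upstream, and the other genes with a window have the same start in both. The matches describe letters and are not shown to be binding sites.

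Together the 10 genes took 342664 and 249621 counts in WT, or 0.948% and 0.825% of each library. In the c-Myc transgenic samples they took 5051 and 7759 counts, or 0.0161% and 0.0187%. Pla2g1b alone made up 96.0 and 96.2% of these counts in WT and 12.7 and 12.3% in the c-Myc transgenic samples. There Cela1 made up 83.4 and 83.7%, against 2.42 and 2.36% in WT. In each WT sample Pla2g1b, Clps, Cela1 and Cel had 100 counts or more, Cpb1 and Cela2a had fewer, and Cpa1, Cela3b, Ctrb1 and Pnlip each had under 30 counts over all 4 samples.

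**Figure D1:**
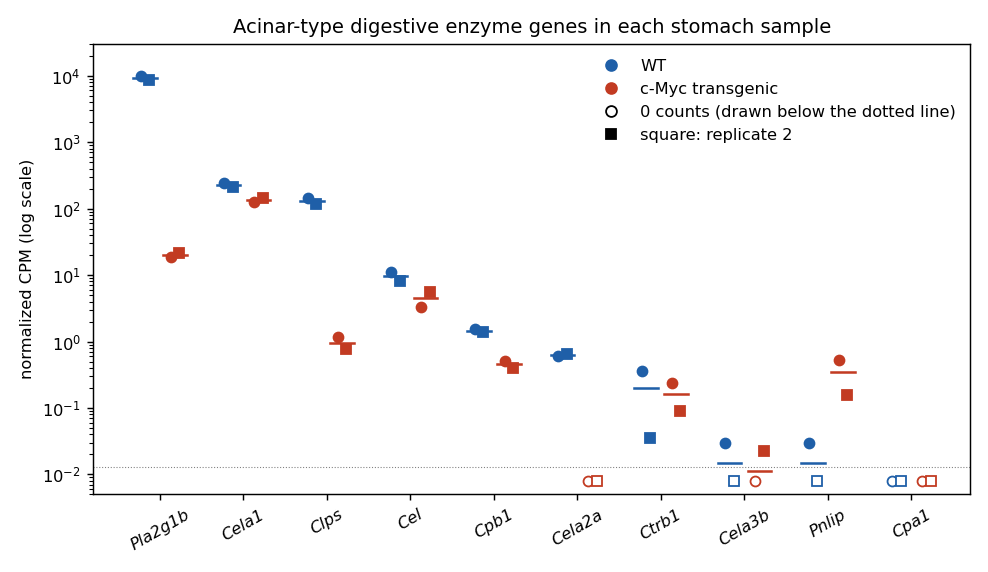
Normalized CPM (log axis) of the 10 digestive enzyme genes in 2 WT (blue) and 2 c-Myc transgenic (red) stomach samples, circles for replicate 1 and squares for replicate 2, with bars at the mean of 2; open symbols below the dotted line are samples with 0 counts. Pla2g1b lay at 9805 and 8607 in WT and at 18.9 and 21.4 in the c-Myc transgenic samples, while Cela1 lay at 247 and 211 and at 124 and 145.

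Pla2g1b encodes the secreted group IB phospholipase A2, which cleaves dietary phospholipids, and lies on chromosome 5 (115466142 to 115474722, + strand). It had 329050 and 240125 counts in WT against 642 and 954 in the c-Myc transgenic samples. In normalized CPM these were 9805 and 8607 against 18.9 and 21.4, so both WT samples lay far above the others. The WT mean of 9206 ± 847 (SD, n = 2) was 457-fold the c-Myc transgenic mean of 20.1 ± 1.72 (SD, n = 2), a log2 fold change of -8.84. By counts Pla2g1b ranked 6 and 7 of all rows in WT, and 8141 and 7766 in the c-Myc transgenic samples. It was among the most abundant transcripts of the WT stomach.

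Clps encodes colipase, the cofactor of pancreatic lipase, and lies on chromosome 17 (28558210 to 28560766, - strand). Its counts were 4869 and 3323 in WT against 39 and 34 in the c-Myc transgenic samples, or 145 and 119 against 1.15 and 0.761 normalized CPM. Both WT samples lay above both c-Myc transgenic samples, and the means differed 138-fold (132 ± 18.4 against 0.955 ± 0.275, SD, n = 2 each, log2 fold change -7.13). Per 100 counts of Pla2g1b, Clps had 1.48 and 1.38 in WT against 6.07 and 3.56 in the c-Myc transgenic samples, higher in both c-Myc transgenic samples.

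RNA of Pnlip, the triglyceride lipase that colipase serves, was near 0. In WT the RNA of the cofactor was thus present almost without that of this enzyme, and protein was not measured. Pnliprp2, a relative of pancreatic lipase, had 55.1 and 32.8 normalized CPM in WT. Pnlip had 1 and 0 counts in WT against 18 and 7 in the c-Myc transgenic samples, which both lay higher (0.531 and 0.157 normalized CPM). At these counts no fold is given, and Pnlip did not pass the filter on low counts.

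Cel encodes the bile salt-dependent carboxyl ester lipase, which also splits cholesterol esters. Its counts were 370 and 228 in WT against 114 and 247 in the c-Myc transgenic samples, or 11.03 and 8.17 against 3.36 and 5.53 normalized CPM. Both c-Myc transgenic samples lay below both WT samples, and the means differed 2.16-fold (9.60 ± 2.02 against 4.45 ± 1.53, SD, n = 2 each, log2 fold change -1.11).

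The elastases, a family of serine proteases, differed from each other. Cela1, on chromosome 15 (100674422 to 100687920, - strand), had 8290 and 5887 counts in WT against 4213 and 6494 in the c-Myc transgenic samples, or 247 and 211 against 124 and 145 normalized CPM. The genotypes did not overlap, and the means differed 1.70-fold (229 ± 25.5 against 135 ± 14.97, SD, n = 2 each). The log2 fold change was -0.76, and -0.54 when the samples were scaled by library size alone. By counts Cela1 ranked 600 and 768 in WT against 1569 and 1271 in the c-Myc transgenic samples, so it stayed among the more abundant rows in both.

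Cela2a had 20 and 18 counts in WT and 0 in both c-Myc transgenic samples. Against a floor of 3 counts in each of these libraries it was at least 7.98-fold lower. It passed the filter on low counts through its WT samples. Of its 1723 exon bases, 305 are shared with exons of Ctrc and of Casp9, which lies on the other strand, and whether the counting used strand is not given in the sources used here. Ctrc had 0 counts in all 4 samples, and Casp9 had 28.5 and 26.1 normalized CPM in WT against 26.6 and 25.3 in the c-Myc transgenic samples. Cela3b had 1 and 0 counts in WT against 0 and 1, at or under the floor in both genotypes.

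Carboxypeptidases trim amino acids from the end of a peptide, Cpb1 basic ones and Cpa1 aromatic and aliphatic ones. Cpb1 had 51 and 39 counts in WT against 17 and 18 in the c-Myc transgenic samples, or 1.52 and 1.398 against 0.501 and 0.403 normalized CPM. Both c-Myc transgenic samples were lower, by 3.23-fold at the means (log2 fold change -1.69), in a row that the re-sorting does not move. Cpa1 had 0 counts in every sample, which allows up to 3 counts per library, or 0.0672 to 0.108 normalized CPM.

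Ctrb1, which encodes chymotrypsinogen B, had 12 and 1 counts in WT against 8 and 4 in the c-Myc transgenic samples. The genotypes overlapped (0.358 and 0.0358 against 0.236 and 0.0895 normalized CPM), and no difference was detectable at this depth.

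Levels were compared between genes as normalized CPM per kilobase of exon. In WT the order was Pla2g1b (12912 ± 1188, SD, n = 2), Clps (216 ± 30.1), Cela1 (99.3 ± 11.04), Cel (4.56 ± 0.959), Cpb1 (0.444 ± 0.0262), Cela2a (0.360 ± 0.0202) and Ctrb1 (0.224 ± 0.259), followed by Cela3b and Pnlip near 0 and Cpa1 at 0. Ctrb1 did not differ from its neighbours Cela2a and Cela3b beyond its spread, and the genes above it were apart by more than their SDs. Cpb1 (51 and 39 counts) and Cela2a (20 and 18 counts) had few counts in WT. Their SDs of n = 2 may understate the counting error, so the order of this pair is uncertain. On this scale Pla2g1b ranked 3 and 4 among 33980 rows with a GENCODE length. In the c-Myc transgenic samples Cela1 led with 58.5 ± 6.49 CPM per kilobase, followed by Pla2g1b (28.3 ± 2.41), Cel (2.11 ± 0.729) and Clps (1.56 ± 0.450). Cel and Clps were closer to each other than the SD of Cel. Cela1 thus stood below Clps and Pla2g1b in WT and above both in the c-Myc transgenic samples.

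Of all rows, 17643 genes passed the filter on low counts and were tested with edgeR's quasi-likelihood test. With an adjusted p under 0.05 and a fold change above 1.5, 5.08% of them (896) were called lower in the c-Myc transgenic samples and 5.65% (996) higher. Scaled by library size alone, 739 were lower and 2272 higher, and the median over tested genes went from 0.012 to 0.23 on the log2 scale. Without WT replicate 1 edgeR called 0 genes and 3554 had an unadjusted p under 0.05, and without WT replicate 2 these numbers were 0 and 3410, so each edgeR call below rests on both WT samples. DESeq2 was not run with a sample left out. Of the 10 digestive enzyme genes 6 passed the filter, and in all 6 both c-Myc transgenic samples lay below both WT samples, which held for 31.5% of all tested genes. Since the genes were chosen on this contrast, nothing is read from that count. The median log2 fold change of the 6 was -4.41, and -2.34 with Cela2a at its bound in place of its fitted value.

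Counts under other settings are read against their own shares of all genes tested. DESeq2 called 9.38% lower and 8.13% higher. At an unadjusted p under 0.05 edgeR had 16.4% lower and 17.7% higher. edgeR called 4.48% lower and 4.2% higher without c-Myc transgenic replicate 1, and 7.69% lower and 5.82% higher without replicate 2. It called 4.83% lower without the filter on low counts and 12.9% higher with library size alone.

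**Figure D2:**
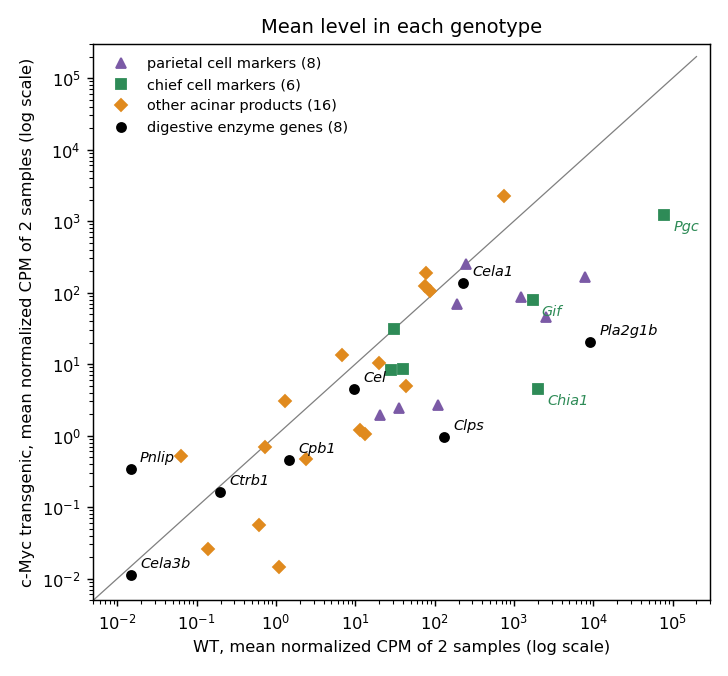
Mean normalized CPM of 2 samples in WT (x axis) against the c-Myc transgenic samples (y axis), both on log axes, for the digestive enzyme genes, other acinar products, chief cell markers and parietal cell markers; the line marks equal levels, and genes at 0 in a genotype, such as Cela2a and Cpa1, are not drawn. Pla2g1b (457-fold) and Clps (138-fold) lie far below the line and Cela1 (1.70-fold) near it.

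The pancreatic label was checked against 33 other secreted products of acinar cells. Of these, 16 had 0 counts in all 4 samples, among them the trypsinogens Prss1, Prss2 and Prss3, the protease Ctrc, the elastase Cela3a, the amylase rows Amy2a1 to Amy2a5, Serpini2, Tmed11 and Aqp12. Amylase and trypsinogen genes have near-identical copies, between which the authors' counting may have split or dropped reads. The islet genes Ins1, Ins2 and G6pc2 also had 0 counts in every sample. Of the 3 islet markers tested, Gcg, the glucagon gene that gut endocrine cells also use, fell from 8.67 and 6.77 to 3.13 and 2.55 normalized CPM (log2 fold change -1.44, adjusted p = 0.0427), a call that is lost without c-Myc transgenic replicate 1 and without either WT sample. Nkx6-1 had 6.14 and 3.58 in WT against 0.531 and 9.02 (adjusted p = 0.992). Other rows of the acinar list were present in WT, such as Amy1 at 11.4 and 15.2 and Pnliprp2 at 55.1 and 32.8 normalized CPM. Klk1, Reg1 and Ctrl were named after their values were seen. Klk1 had 65.4 and 85.0 in WT against 156 and 94.5 (edgeR adjusted p = 0.158). Reg1 had 116 and 39.4 against 340 and 39.6 (edgeR adjusted p = 0.473), so the genotypes overlapped. Ctrl had 3 and 1 counts in WT against 25 and 14 (edgeR adjusted p = 0.0892). The 10 genes are called digestive enzyme genes of acinar type here, after what they encode, and which cells of the samples held their RNA was not tested.

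Of the 15 tested products of the acinar list, 5 were called lower (background 5.08%), 1 was called higher (background 5.65%) and 9 did not pass. At an unadjusted p under 0.05, 7 were lower (background 16.4%) and 2 higher (background 17.7%). DESeq2 called 7 lower (background 9.38%), among them Try5 and Pnliprp1, and 1 higher (background 8.13%). Pnliprp2, a relative of pancreatic lipase, fell from 55.1 and 32.8 normalized CPM in WT to 7.22 and 2.80 (log2 fold change -3.14, standard error 0.57, adjusted p = 0.0406), and its log2 fold change was -3.97 without c-Myc transgenic replicate 1. Rnase1, a secreted ribonuclease, fell from 10.8 and 12.0 to 0.708 and 1.68 (-3.24, standard error 0.48, adjusted p = 0.0312), and had -4.001 without c-Myc transgenic replicate 2. Both were lower in each c-Myc transgenic sample than in either WT sample.

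The amylase gene Amy1 fell from 11.4 and 15.2 normalized CPM to 0.796 and 1.32 (log2 fold change -3.63, adjusted p = 0.0198). Amy2b, with 34 and 32 counts in WT against 1 and 0 in the c-Myc transgenic samples, was also called lower (adjusted p = 0.0325), at a pooled ratio of 0.0118 (exact 95% interval 0.000296 to 0.0684). Its fitted log2 fold change was -6.03, -8.26 without c-Myc transgenic replicate 1 and -5.02 without replicate 2. Both belong to a family of near-identical copies, so the split of reads between them is uncertain. The remaining gene called lower, Sycn, encodes syncollin of the zymogen granule and was chosen after its values were seen (2.32 and 2.47 against 0.531 and 0.403 normalized CPM, adjusted p = 0.0344).

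Dmbt1, a secreted scavenger protein of mucosal epithelia, rose from 826 and 689 to 2643 and 1802 normalized CPM (log2 fold change 1.55, standard error 0.23, adjusted p = 0.0316). Zg16, a lectin of secretory granules that goblet cells also make, had 121 and 55.6 in WT against 111 and 99.5 (adjusted p = 0.690). Pnliprp1, a close relative of Pnliprp2 chosen after its values were seen, had 24.5 and 15.3 against 12.0 and 8.75 (adjusted p = 0.116 with edgeR, while DESeq2 called it lower). The median log2 fold change of the 15 was -0.079, beside 0.012 over all tested genes. The 33 listed products summed to 1244 and 957 normalized CPM in WT against 3302 and 2055 in the c-Myc transgenic samples. Most of this sum was Dmbt1. In place of 5 products, 3 were called lower without c-Myc transgenic replicate 2 (background 7.69%) and 0 without either WT sample, where 5 and 7 products were lower at an unadjusted p under 0.05 (background 9.49% and 8.35%). The calls of higher level were 0 without either WT sample and 3 without c-Myc transgenic replicate 2 (background 5.82%).

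**Figure D3:**
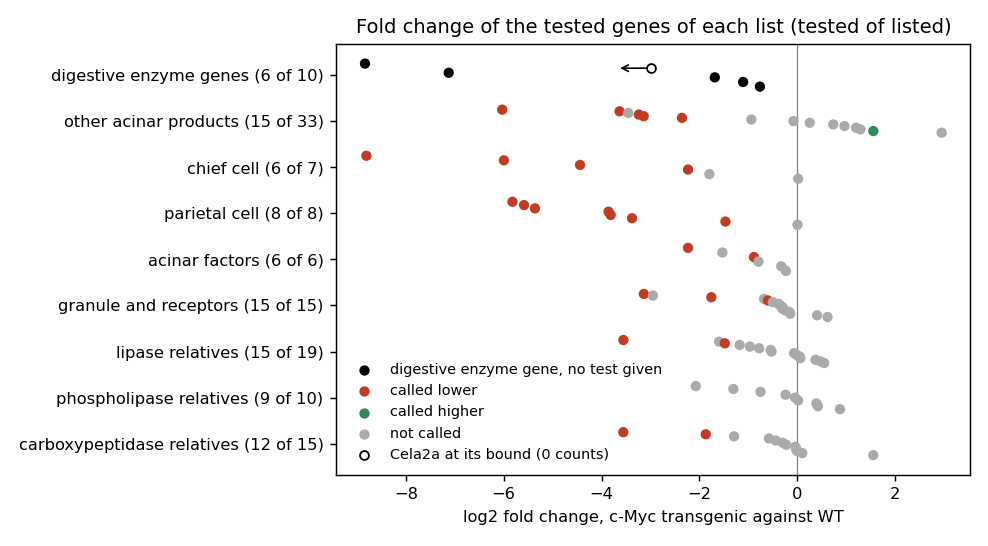
Log2 fold change of the c-Myc transgenic against the WT samples for the tested genes of each list, with the number tested of the number listed; black points are the digestive enzyme genes, for which no test is given, red points were called lower, green higher and grey not called, and the open circle with an arrow is Cela2a at its bound. The digestive enzyme genes spread from -8.84 to -0.76, and the phospholipase A2 relatives have a median of -0.046.

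Most of the chief cell markers tested fell. Of the 6 tested, 4 were called lower (background 5.08%) and 0 higher (0 at an unadjusted p under 0.05 and 0 by DESeq2), with a median log2 fold change of -3.34. Chia1, an acidic chitinase, fell from 2004 and 2062 normalized CPM to 4.57 and 4.50 (-8.81, standard error 0.13, adjusted p = 0.00141). Pgc, which encodes pepsinogen C, fell from 80998 and 76704 to 1043 and 1426 (-6.00, standard error 0.29, adjusted p = 0.00975).

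Gif, which encodes intrinsic factor, fell from 1776 and 1678 to 101 and 58.5 normalized CPM (-4.44, adjusted p = 0.0152). Bhlha15, a transcription factor that shapes zymogenic cells in stomach and pancreas alike, fell from 41.1 and 38.6 to 11.8 and 5.19 (-2.23, adjusted p = 0.0442, and -2.94 without c-Myc transgenic replicate 1). Pga5, a pepsinogen gene chosen after its values were seen, had 34.3 and 27.0 against 38.2 and 23.7 (adjusted p = 0.975). Lipf, the gastric lipase gene, had 0 counts in all samples. The summed level of the list was 84893 and 80528 normalized CPM in WT against 1210.4 and 1522 in the c-Myc transgenic samples, most of which is Pgc alone, and its part in the lower level of Pla2g1b and Clps was not tested. Without WT replicate 1 or WT replicate 2, 0 of these markers were called and 4 were lower at an unadjusted p under 0.05.

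Markers of parietal cells, the lineage that carries the transgene, were called lower in 7 of 8 cases (background 5.08%, and 7 by DESeq2) and higher in 0 (0 at an unadjusted p under 0.05 and 0 by DESeq2). Their sum was 12077 and 12318 normalized CPM in WT against 624 and 614 in the c-Myc transgenic samples. Atp4b, whose promoter drives Cre, fell from 2609.8 and 2490.1 to 38.4 and 51.7 (log2 fold change -5.82, adjusted p = 0.00635), and Atp4a, the catalytic subunit of the proton pump, from 7684 and 7949 to 138 and 187 (-5.59, adjusted p = 0.00884). Kcne2, a potassium channel subunit, fell by 5.36 on the log2 scale (adjusted p = 0.00447), and the water channel Aqp4 fell by 3.86 (adjusted p = 0.0133). Without either WT sample 0 of the 8 were called and 7 were lower at an unadjusted p under 0.05.

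**Figure D4:**
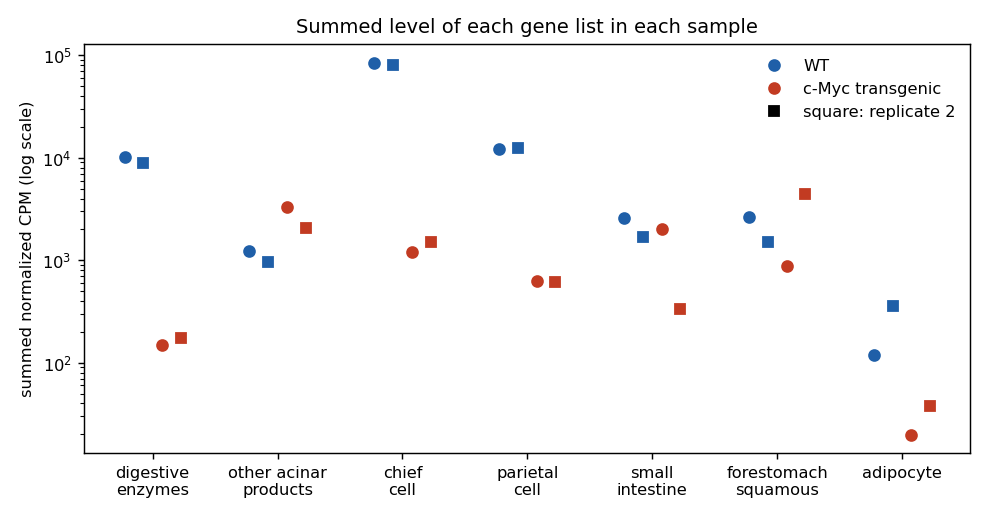
Summed normalized CPM (log axis) of each gene list in the 2 WT (blue) and 2 c-Myc transgenic (red) samples, circles for replicate 1 and squares for replicate 2. The chief cell sum lay at 84893 and 80528 in WT and at 1210.4 and 1522 in the c-Myc transgenic samples, most of it Pgc, while the squamous sum lay at 2633 and 1503 and at 871 and 4387.

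Other tissue that a stomach sample may hold was not even between the samples. The 12 markers of small intestinal epithelium summed to 2592 and 1689.9 normalized CPM in WT against 2013 and 336 in the c-Myc transgenic samples. edgeR called 0 of them (0 at an unadjusted p under 0.05 and 0 by DESeq2), but 3 were called lower without c-Myc transgenic replicate 1, and 1 lower and 1 higher without replicate 2. The most abundant in WT were Apoa1, at 943 and 1008 in WT against 261 and 23.7, and Alpi, at 716 and 198 against 799 and 66.4.

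The 8 markers of forestomach squamous epithelium summed to 2633 and 1503 in WT against 871 and 4387 in the c-Myc transgenic samples, with 0 called (1 higher at an unadjusted p under 0.05, 1 by DESeq2, and 3 higher without c-Myc transgenic replicate 1). Krt13 had 886 and 512 normalized CPM against 223 and 1368, and Krt4 799 and 393 against 130.3 and 1123. The 5 adipocyte markers summed to 119 and 355 against 19.8 and 37.9, and 1 was called lower (background 5.08%). All 5 were lower at an unadjusted p under 0.05 (background 16.4%) and 4 were called lower by DESeq2 (Plin1, Cfd, Lep and Cidec, background 9.38%). edgeR called 5 without the filter on low counts, 3 without c-Myc transgenic replicate 2 and 0 without any one of the other samples. The gene called in the full fit was Lep, the leptin gene (1.16 and 3.91 against 0 and 0.0448, adjusted p = 0.0421), whose fitted log2 fold change of -6.48 ranged from -9.33 without c-Myc transgenic replicate 2 to -5.38 without WT replicate 2, while Cfd and Cidec had adjusted p = 0.0939 and 0.103 with edgeR. Between replicates of a genotype Pla2g1b, Clps, Cela1 and Cel differed 1.13-fold to 1.65-fold, and Ctrb1, with few counts, up to 9.98-fold. The part of these tissues in the results was not tested.

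Transcription factors of acinar and zymogenic cells were called lower in 2 of 6 cases (background 5.08%, and 3 by DESeq2) and higher in 0 (0 at an unadjusted p under 0.05 and 0 by DESeq2). Besides Bhlha15 this was Gata4, a factor of foregut epithelium, which fell from 320.3 and 342 to 186 and 172 normalized CPM (log2 fold change -0.89, adjusted p = 0.0201). Ptf1a, the factor that defines acinar cells and was chosen after its values were seen, was low, with 4.89 and 2.76 in WT against 1.09 and 1.54 (adjusted p = 0.0901 with edgeR, while DESeq2 called it lower). Xbp1, a factor of the secretory pathway, had 400.5 and 441 against 363 and 307 (adjusted p = 0.149). Without either WT sample 0 of the 6 were called, and 2 and 3 were lower at an unadjusted p under 0.05.

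Of 15 genes for the release of zymogen granules and its receptors, 3 were called lower (background 5.08%) and 0 higher (1 at an unadjusted p under 0.05 and 0 by DESeq2), with a median log2 fold change of -0.35. Cckar, the cholecystokinin receptor that triggers enzyme release, fell from 61.4 and 67.8 to 8.37 and 6.34 normalized CPM (-3.14, standard error 0.18, adjusted p = 0.0107). Cckbr, the gastrin receptor, fell from 5.93 and 6.81 to 1.44 and 2.31 (-1.76, adjusted p = 0.0461). Syt7, a calcium sensor of exocytosis, fell from 97.9 and 86.9 to 64.9 and 57.1 (-0.60, adjusted p = 0.0428). In this list 7 genes were lower at an unadjusted p under 0.05 (background 16.4%) and 4 by DESeq2 (background 9.38%). The granule GTPase Rab3d had 343 and 351 against 315 and 306 (adjusted p = 0.236), and the calcium channel Itpr3 505 and 548 against 453 and 498 (adjusted p = 0.372). Without either WT sample 0 were called and 5 were lower at an unadjusted p under 0.05, and 2 were called lower without either c-Myc transgenic sample. In the fit with library size alone 1 gene of the list was called higher (12.9% of all tested genes), and 1 without c-Myc transgenic replicate 2 (5.82%).

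Relatives of the enzymes outside the acinar type were taken from the same fit. Of 10 secreted phospholipase A2 genes beside Pla2g1b, 9 were tested and edgeR called 0, while 1 was lower and 1 higher at an unadjusted p under 0.05 and DESeq2 called 1 lower, Pla2g5, named after its values were seen. Pla2g10 had 48.9 and 61.3 normalized CPM in WT against 42.9 and 50.3 (adjusted p = 0.341). Pla2g12a had 42.7 and 38.4 against 54.1 and 54.4 (adjusted p = 0.0580), and with library size alone 1 gene of this list was called higher. The median log2 fold change of the 9 was -0.046, but Pla2g1b was chosen on this contrast and is not tested against them.

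Of 15 tested relatives of the lipases, 2 were called lower (background 5.08%) and 0 higher (1 at an unadjusted p under 0.05, 0 by DESeq2, and 1 each with library size alone and without c-Myc transgenic replicate 2). Lpl, the lipoprotein lipase of fat and muscle, fell from 259 and 395 to 13.4 and 42.1 normalized CPM (log2 fold change -3.56, adjusted p = 0.0406), with -2.96 without c-Myc transgenic replicate 1 and -4.60 without replicate 2. The carboxylesterase Ces2c fell from 269 and 225 to 97.4 and 79.4 (-1.48, adjusted p = 0.0201). The adipocyte sums moved with Lpl, and their part was not tested. At an unadjusted p under 0.05, edgeR had 8 genes of this list lower (background 16.4%). DESeq2 called 6 of this list lower (background 9.38%), and edgeR 5 without either c-Myc transgenic sample (background 4.48% and 7.69%). Without either WT sample 0 were called, and 4 and 3 were lower at an unadjusted p under 0.05 (background 9.49% and 8.35%).

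Of 12 tested relatives of the carboxypeptidases, 2 were called lower (background 5.08%, and 2 by DESeq2) and 0 higher (1 at an unadjusted p under 0.05, 1 by DESeq2 and 1 with library size alone). At an unadjusted p under 0.05, edgeR had 4 lower (background 16.4%). Cpb2, a plasma carboxypeptidase made mainly by liver, fell from 2.06 and 3.15 to 0.236 and 0.201 normalized CPM (-3.56, adjusted p = 0.0257), and the membrane-bound Cpm from 57.4 and 61.2 to 16.7 and 15.6 (-1.87, adjusted p = 0.0102). Cpd had 777 and 879.8 against 958 and 819 (adjusted p = 0.633) and Cpe, which processes hormones, 264 and 169 against 101 and 188 (adjusted p = 0.352). Without either WT sample 0 were called and 3 were lower at an unadjusted p under 0.05.

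As deposited, the c-Myc transgenic columns list 25 and 32 counts beside Pla2g1b, 3516 and 5061 beside Clps, 2147 and 2865 beside Cela1, 379 and 378 beside Cela2a and 3016 and 4236 beside Cel. The re-sorting assigns these counts to Ppp1r1a, Clock, Cebpz, Cebpzos and Cebpg. Beside Cela3b the deposited columns list 278 and 375, and beside Pnlip 0 and 1, so the higher level of Pnlip in the c-Myc transgenic samples is seen only after re-sorting. In the deposited order the fitted log2 fold change was -13.56 for Pla2g1b, -0.22 for Clps and -1.78 for Cela1. It was 4.04 for Cela2a and 3.32 for Cel, so that these genes turned to a higher level in the c-Myc transgenic samples. Cpb1, whose counts are the same in both orders, had -1.63.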

How the data were processed

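RNA sequencing counts of stomach from 2 WT and 2 c-Myc transgenic samples were analysed. The deposited values are raw counts per gene symbol in 1 column per sample. Per the labels the authors used HISAT2 and mm10. The counting tool, annotation and strand setting are not given in the sources used here, and the methods name DESeq2 for the authors' own comparison.

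The c-Myc transgenic counts were assigned to the sorted gene names as described. Genes that passed filterByExpr were fitted by genotype in R (4.3.3) with glmQLFit of edgeR (4.0.16) after TMM scaling, and p-values of glmQLFTest were adjusted by the Benjamini-Hochberg method over all tested genes. A call needed an adjusted p under 0.05 and a fold change above 1.5 in either direction. A standard error is the log2 fold change over the square root of F, in absolute value. Exon lengths come from GENCODE (GRCm38), positions and promoter windows from RefSeq (GRCm38.p6).

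The genes and all lists were chosen with earlier results of these data known. Named are the 10 genes and, from each list, the 4 called genes with the largest fold change and the 2 with the highest WT level. Alternatives were the deposited order, DESeq2 (1.42.0), other scalings, filters and thresholds, a replicate block and leaving out each sample. Intervals and floors cover counting error only.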

Additional observations from a re-analysis of the deposited data

How the results depend on the processing

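In the deposited order edgeR called 18580 genes and DESeq2, a combination added after the data were seen, 19605, against 1892 in the re-sorted table. There 11 other acinar products were called lower with either tool, 14 (edgeR) and 15 (DESeq2) were called higher, the median log2 fold change of the digestive enzyme genes was -0.92 (edgeR) and -0.95 (DESeq2), and Cel (3.32 and 3.30), Cela2a (4.04 and 4.03), Dmbt1 (-17.66 and -17.25), Krt13 (-1.51 and -1.56), Krt4 (-17.31 and -16.90), Nkx6-1 (2.87 and 2.86) and Zg16 (-14.56 and -14.14) changed sign. In the re-sorted table DESeq2 called 3230 genes (1730 lower, 1500 higher), scaling by library size alone 3011, and an absolute log2 fold change above 1 left 1113. Library size alone turned the sign of Alpi (0.14), Itpr3 (0.076), Nkx6-1 (0.20) and Rab3d (0.062), none of which was called. At least 10 counts in every sample removed Cela2a, which put the median of the digestive enzyme genes at -1.69.

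The genotypes share replicate numbers, but nothing says that a number marks a shared litter or day, and the correlation of the replicate differences between the genotypes was 0.067 over tested genes. With the replicate block 114 genes were called, 1 other acinar product, 3 chief cell markers, 7 parietal cell markers and 1 gene each of the granule, lipase and carboxypeptidase lists among those lower. The block left 0 calls among the transcription factors and the islet and adipocyte markers, Dmbt1 was not called, and Krt13 (-0.28) and Krt4 (-0.55) changed sign. The cause was not tested.

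Leaving out 1 sample, with the lone sample of its genotype assumed to vary like the rest, gave 0 to 2470 called genes, 0 to 4 lower acinar products, 0 to 4 lower chief cell markers and a median of the digestive enzyme genes between -4.64 and -4.19. Without either WT sample the smallest adjusted p was 0.196 and 0.232. Alpi (-2.78 to 1.12), Cpd (-0.016 to 0.21), Krt13 (-1.65 to 0.97), Krt4 (-2.19 to 0.91), Nkx6-1 (-3.19 to 0.89) and Zg16 (-0.21 to 0.92) changed sign in these fits. Pla2g1b lay between -8.93 and -8.74 and Clps between -7.43 and -6.84. Genes with under 30 counts over all samples are limited by depth.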

Other observations

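Ratios between genes within a sample do not depend on how the libraries are scaled, and those of Pla2g1b to chief cell genes were taken after the values were seen. Per 100 counts of Chia1, Pla2g1b had 489 and 417 in WT against 414 and 475 in the c-Myc transgenic samples, so the genotypes overlapped in this ratio. Per 100 counts of Pgc it had 12.1 and 11.2 against 1.81 and 1.497, lower in both c-Myc transgenic samples. Per 100 counts of Pnliprp1, its relative Pnliprp2 had 225 and 215 against 60.2 and 32.0. With 2 samples per genotype these ratios are values without a test.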
